A study of Mus musculus with 2 samples.

Results

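The genes described here are regulators of the Lin28 and let-7 axis and growth regulators of fetal tissue that are known let-7 targets or partners. They comprised 9 genes: Lin28a, Lin28b, Dicer1, Hmga1, Hmga2, Igf2bp1, Igf2bp2, Igf2bp3 and Trim71. A gene was followed through every probe set whose platform annotation named it and no other gene. This gave 21 probe sets for 7 of the 9 genes, of 45101 probe sets on the array and 18193 genes with a probe set of their own. Hmga1 and Igf2bp2 had no such probe set and are not analysed here.

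The arrays were of lung epithelium isolated from ICR mouse fetuses at embryonic day 11. For the first 4 days all of the tissue grew in Matrigel (a gel made of basement membrane) containing FGF10, which drives budding of the lung, and CHIR99021, which activates Wnt signalling by blocking glycogen synthase kinase 3. The epithelium was fragmented, embedded anew and fed FGF10 for 2 further days. The CHIR+ culture received CHIR99021 throughout these days, while the CHIR- culture had it withdrawn. There was 1 array per condition, which leaves no measure of the spread between cultures, so the values below carry no error and no test.

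The let-7 microRNAs accumulate as embryonic cells mature and hold down genes of the fetal growth program. Lin28a and Lin28b bind the loop of let-7 precursors, where a GGAG motif is one of their contacts. Lin28a recruits the uridylating enzymes Tut4 and Tut7, after which the exonuclease Dis3l2 degrades the precursor. Where Lin28 proteins are absent, Dicer1 cuts the precursor to the mature microRNA, which lowers Hmga2, the Igf2bp genes, Trim71 and Lin28b itself, as well as Dicer1. Hmga2 and Lin28b are widely used as markers of early, immature progenitors.

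No probe set was named here as a let-7 or mir-98 gene, so the microRNA levels are not analysed here. The sequences that connect the measured genes are shown from RefSeq (GRCm38.p6), with the seed, bases 2 to 8, in capitals. All 9 mature sequences of the family shared 1 seed, GAGGUAG, and were 22 bases long.
let-7a: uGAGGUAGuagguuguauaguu
let-7b: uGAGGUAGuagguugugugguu
let-7c: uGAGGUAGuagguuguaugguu
let-7d: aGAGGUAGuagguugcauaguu
let-7e: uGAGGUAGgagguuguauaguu
let-7f: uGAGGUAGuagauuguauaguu
let-7g: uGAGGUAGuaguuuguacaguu
let-7i: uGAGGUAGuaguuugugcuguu
miR-98: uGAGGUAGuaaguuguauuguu

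The letters GGAG occurred between the arms of 9 of the 12 hairpins of the family in the RefSeq table, and were absent there from 3, those of let-7b, let-7c-2 and miR-98. One hairpin with the motif (in capitals) and one without are shown because this loop is the part that Lin28 proteins contact. The let-7g hairpin lies on chr9:106178840-106178927 (plus strand), the miR-98 hairpin on chrX:151913214-151913321 (plus strand).
let-7g hairpin: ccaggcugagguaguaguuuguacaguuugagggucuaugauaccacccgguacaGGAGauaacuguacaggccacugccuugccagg
miR-98 hairpin: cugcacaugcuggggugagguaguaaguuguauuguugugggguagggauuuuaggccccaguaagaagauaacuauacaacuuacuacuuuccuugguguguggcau

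Signals are MAS5 intensities in arbitrary units. A probe set was taken as above background when it exceeded a floor, the 95th percentile of the 80 probe sets of olfactory and vomeronasal receptor genes, which lay at 12.7 on the CHIR+ array and 19.2 on the CHIR- array. At least 1 array put 12917 genes over this floor, and both did so for 11356, whose median log2 ratio of CHIR+ over CHIR- was -0.40. A member that moved as the typical gene did thus had a negative ratio. The 3' over 5' signal ratio of the beta-actin control was 3.18 on the CHIR+ array and 1.29 on the CHIR- array. That of the Gapdh control was 1.62 on the CHIR+ array and 0.737 on the CHIR- array. The positions of the member probe sets along their transcripts are not in the files, so the part of these differences in the member ratios was not tested.

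Of the 7 genes, 5 exceeded the floor of an array. By its brightest probe set 1 of the 5, Hmga2, was 2-fold or more higher with CHIR99021, and 0 were 2-fold or more lower. Among all 12917 genes, 1.90% were higher and 18.4% lower by the same threshold. At the level of probe sets, 16 of the 21 were above the floor on both arrays, 1 on the CHIR+ array only and 4 on neither. Of those 16, 3 were 2-fold or more higher with CHIR99021, 3 were 2-fold or more lower and 10 lay in between, against 1.41% higher and 22.5% lower among the 20543 single-gene probe sets that cleared both floors. The 3 higher ones were all probe sets of Hmga2, and the lower ones were 2 of Igf2bp3 and 1 of Dicer1.

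**Figure D1:**
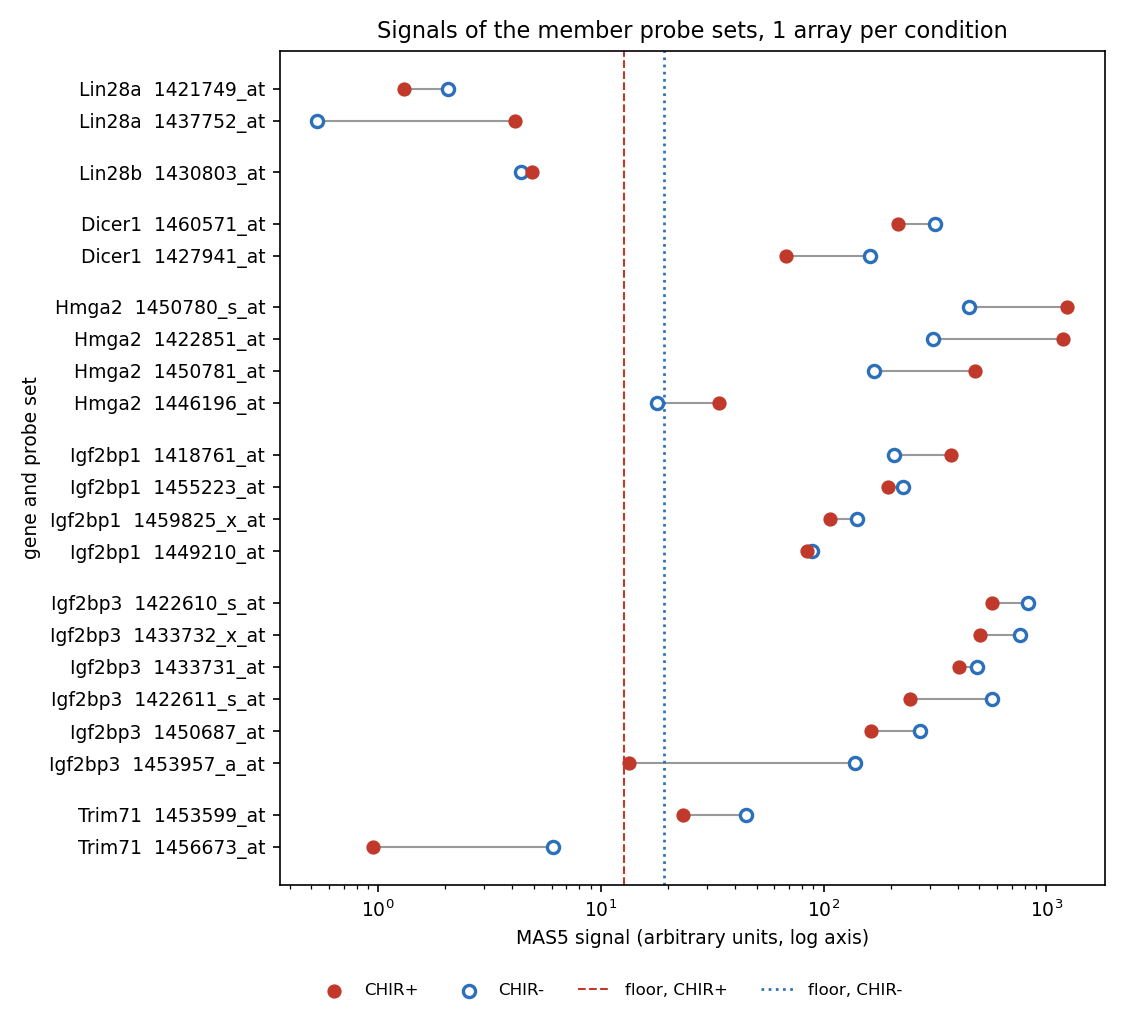
MAS5 signal (arbitrary units, log axis) of each of the 21 probe sets on the CHIR+ array (filled red points) and the CHIR- array (open blue points), 1 array each, with the background floors of 12.7 (CHIR+, dashed) and 19.2 (CHIR-, dotted). All 3 Lin28 probe sets lie left of both floors, the Hmga2 points are higher on the CHIR+ array in every probe set, and those of Igf2bp3 are lower on the CHIR+ array in every probe set on this deposited scale, though 1 of the 6 turns positive after median centring, loess or quantile normalization.

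Both Lin28 genes were below background in both cultures. Lin28a, the paralogue best known from embryonic stem cells, had signals of 1.31 on the CHIR+ array and 2.06 on the CHIR- array by probe set 1421749_at. Its second probe set, 1437752_at, had 4.10 on the CHIR+ array and 0.533 on the CHIR- array. Lin28b, the paralogue that persists longer in many embryonic tissues, was read by a single probe set, 1430803_at, at 4.89 on the CHIR+ array and 4.37 on the CHIR- array. These signals lay between 0.0278 and 0.384 times the floor of their array, so they have no order between the arrays and no ratio is given. No array of cells known to express Lin28 was at hand, so the response of these probe sets to their transcripts was not tested.

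Dicer1, the endonuclease that releases mature let-7 from its precursor, was present in both cultures and lower on the CHIR+ array by both probe sets as deposited, while the brighter one was near 0 after most other scalings. The brighter one, 1460571_at, had 217 on the CHIR+ array and 315 on the CHIR- array, a log2 ratio of -0.54. That is close to the median of -0.45 of the 500 genes nearest to it in mean signal, and 43.6% of those genes had a lower ratio. The dimmer one, 1427941_at, had 67.5 on the CHIR+ array and 162 on the CHIR- array, 2.40-fold lower. Its log2 ratio of -1.26 stood against a median of -0.43 for genes of like signal, and 14.2% of them were lower still. Genes of like signal, here and below, were each read from the brightest probe set. A dimmer probe set of a member is thus set against an unlike group. After median centring, loess or quantile normalization the brighter probe set lay between -0.06 and 0.01 and the dimmer one between -0.79 and -0.62, so that neither was then past 2-fold.

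Hmga2, an AT-hook protein that bends DNA and opens chromatin in fetal progenitors, was higher in the culture that kept CHIR99021. Its brightest probe set, 1450780_s_at, had 1242 on the CHIR+ array and 451 on the CHIR- array, 2.75-fold higher. Probe set 1422851_at had 1188 on the CHIR+ array and 311 on the CHIR- array, 3.82-fold higher. Probe set 1450781_at had 476 on the CHIR+ array and 168 on the CHIR- array, 2.84-fold higher. These 3 probe sets were designed on the same sequence record, so they are repeated readings of 1 RNA on 1 array and not replicates. A further, dim probe set, 1446196_at, designed on another record, had 33.8 on the CHIR+ array and was below the floor on the CHIR- array at 17.8, which gives at least 1.76-fold higher. In bulk RNA, more cells that make Hmga2 and more Hmga2 RNA per cell cannot be told apart.

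The Hmga2 ratios were far from those of genes of like signal. The log2 ratios of 1.46, 1.93 and 1.51 were above 98.8%, 100% and 99.6% of the 500 genes nearest in signal to each probe set, whose medians lay between -0.46 and -0.31. Their range of 0.47 was narrower than the median range of 0.76 over the 1329 genes with 3 probe sets that cleared both floors. Those genes were not limited to probe sets of 1 record, as the Hmga2 ones are, so the comparison is not of like with like. The pseudogene Hmga2-ps1 had its own probe set, which was below the floor on both arrays (6.22 on the CHIR+ array and 11.1 on the CHIR- array). Under every scaling tried, the 3 bright Hmga2 probe sets stayed at least 2-fold higher with CHIR99021, with log2 ratios from 1.46 as deposited to 2.41 after median centring.

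**Figure D2:**
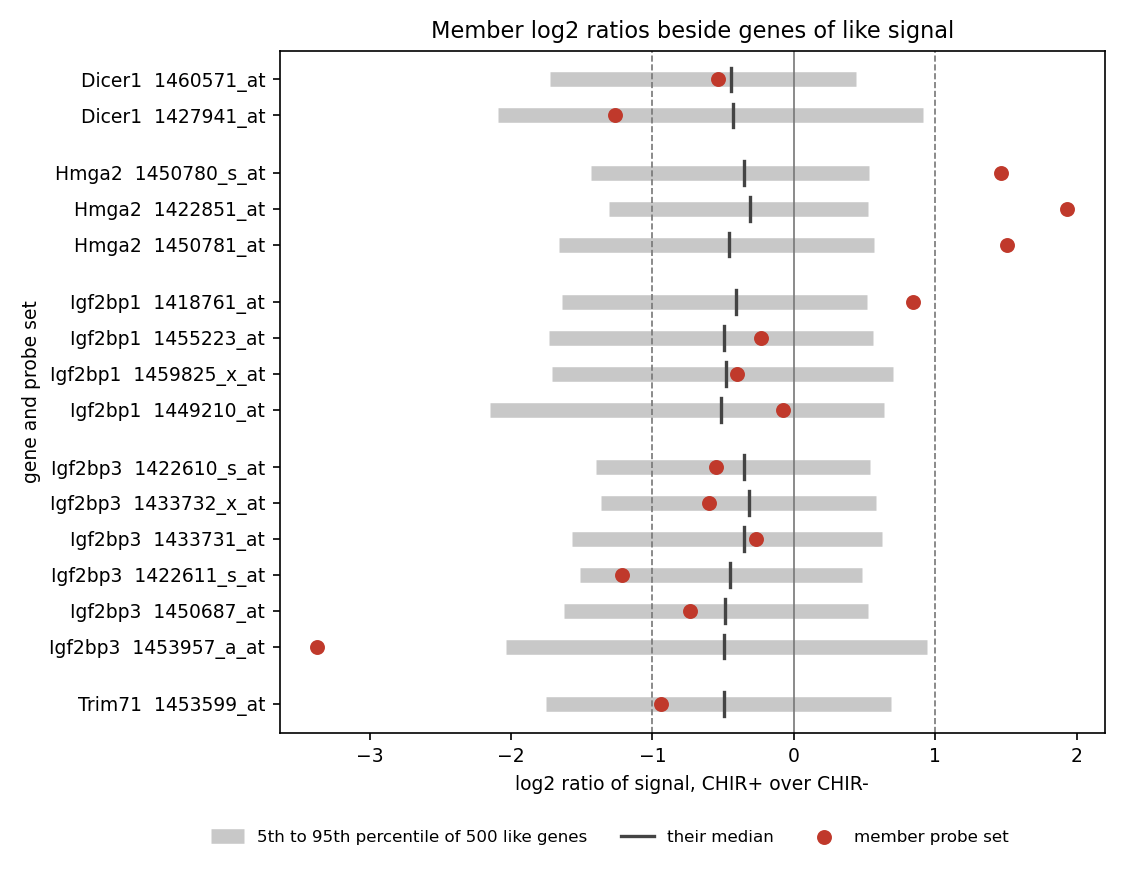
Log2 ratio of signal, CHIR+ over CHIR-, of the 16 probe sets that cleared both floors (red points). Grey bars span the 5th to the 95th percentile of the 500 genes nearest in mean log2 signal, each by its brightest probe set. Black ticks mark their medians and dashed lines mark 2-fold. The 3 Hmga2 points and the brightest Igf2bp1 point lie right of the grey bars, 1 Igf2bp3 point lies left of them and the others lie within.

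The Igf2bp genes encode RNA-binding proteins that stabilise and transport messenger RNAs of growth genes, Igf2 among them. Igf2bp1 was detected in both cultures, but its probe sets did not share a direction. The brightest, 1418761_at, had 372 on the CHIR+ array and 208 on the CHIR- array, a log2 ratio of 0.84 and 1.79-fold higher. The other 3 had slightly lower signals on the CHIR+ array. Probe set 1455223_at had 194 on the CHIR+ array and 228 on the CHIR- array, and 1459825_x_at had 107 on the CHIR+ array and 141 on the CHIR- array. Probe set 1449210_at, designed on the same record as the brightest one, had 83.8 on the CHIR+ array and 88.5 on the CHIR- array, a log2 ratio of -0.08.

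Such disagreement was not unusual on these arrays. The range of 1.24 over the Igf2bp1 log2 ratios compares with a median range of 0.99 over 579 genes with 4 probe sets that cleared both floors, and 39.0% of those genes had ratios of both signs. All 4 Igf2bp1 ratios were above the median of genes of like signal, by 0.08 to 1.25. They were accordingly all positive after median centring, loess and quantile normalization, but on the deposited scale 3 of 4 were negative. Igf2bp1 was therefore within 2-fold as deposited, and at least 2-fold higher by its brightest probe set under each of the 4 other scalings (log2 ratios of 1.01 to 1.38).

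Igf2bp3, the paralogue used as a marker of many tumours and of fetal tissue, was lower on the CHIR+ array by all 6 of its probe sets as deposited, and by 5 of the 6 after median centring, loess or quantile normalization. The brightest, 1422610_s_at, had 567 on the CHIR+ array and 831 on the CHIR- array, a log2 ratio of -0.55. Probe set 1433732_x_at had 505 on the CHIR+ array and 764 on the CHIR- array, and 1433731_at had 404 on the CHIR+ array and 487 on the CHIR- array. Their ratios were near those of genes of like signal: 35.8%, 32.4% and 59% of such genes were lower.

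The 3 dimmer Igf2bp3 probe sets had more negative ratios. Probe set 1422611_s_at had 244 on the CHIR+ array and 568 on the CHIR- array, 2.33-fold lower, though it was designed on the same record as the brightest one. Probe set 1450687_at, also of that record, had 163 on the CHIR+ array and 270.0 on the CHIR- array. Probe set 1453957_a_at had 13.4 on the CHIR+ array, just above the floor of 12.7, and 138 on the CHIR- array, 10.3-fold lower, and 0.2% of genes of like signal were lower still. The range of 3.10 over the 6 log2 ratios was wider than in 94.9% of the 99 genes with 6 such probe sets, whose median range was 1.43. Its low end, -3.37, was that of 1453957_a_at alone, whose CHIR+ signal was 1.05 times the floor. The other ratios ran from -1.22 to -0.27. After median centring, loess or quantile normalization the exception was 1433731_at, which turned positive (0.17 to 0.21), and 1453957_a_at alone of the 6 was then past 2-fold.

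Trim71, the mouse counterpart of worm lin-41 and an RNA-binding ubiquitin ligase repressed by let-7, was close to background. Probe set 1453599_at had 23.4 on the CHIR+ array and 45.0 on the CHIR- array which is 1.84 times the CHIR+ floor and 2.35 times the CHIR- floor. Its log2 ratio of -0.94 lay just short of 2-fold, and 27.2% of genes of like signal were lower. The ratio was -0.46 after median centring, -0.31 after loess and -0.25 after quantile normalization. The second probe set, 1456673_at, was below the floor on both arrays, at 0.946 on the CHIR+ array and 6.06 on the CHIR- array.

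Across the 16 probe sets that cleared both floors, 4 log2 ratios were positive and 12 negative on the deposited scale, while 8 lay above and 8 below the median of genes of like signal. After the 4 other scalings, between 5 and 9 were positive and 4 were 2-fold or more higher under each of them. Median centring, loess and quantile normalization each left 1 that was 2-fold or more lower, and scaling on the 9 hybridization control probe sets left 3. Counted by gene, Hmga2 and Igf2bp1 were then higher and 0 members lower under each of the 4. Among all genes, 5.91% were higher and 7.44% lower after median centring, 7.38% and 6.43% for quantile normalization, 6.44% and 7.03% with loess, and 2.74% and 13.7% after scaling on the hybridization controls. The median log2 ratio of all genes above the floor on both arrays was -0.40 as deposited, -0.24 after scaling on these controls, 0.07 after median centring, 0.07 after loess and 0.12 after quantile normalization.

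**Figure D3:**
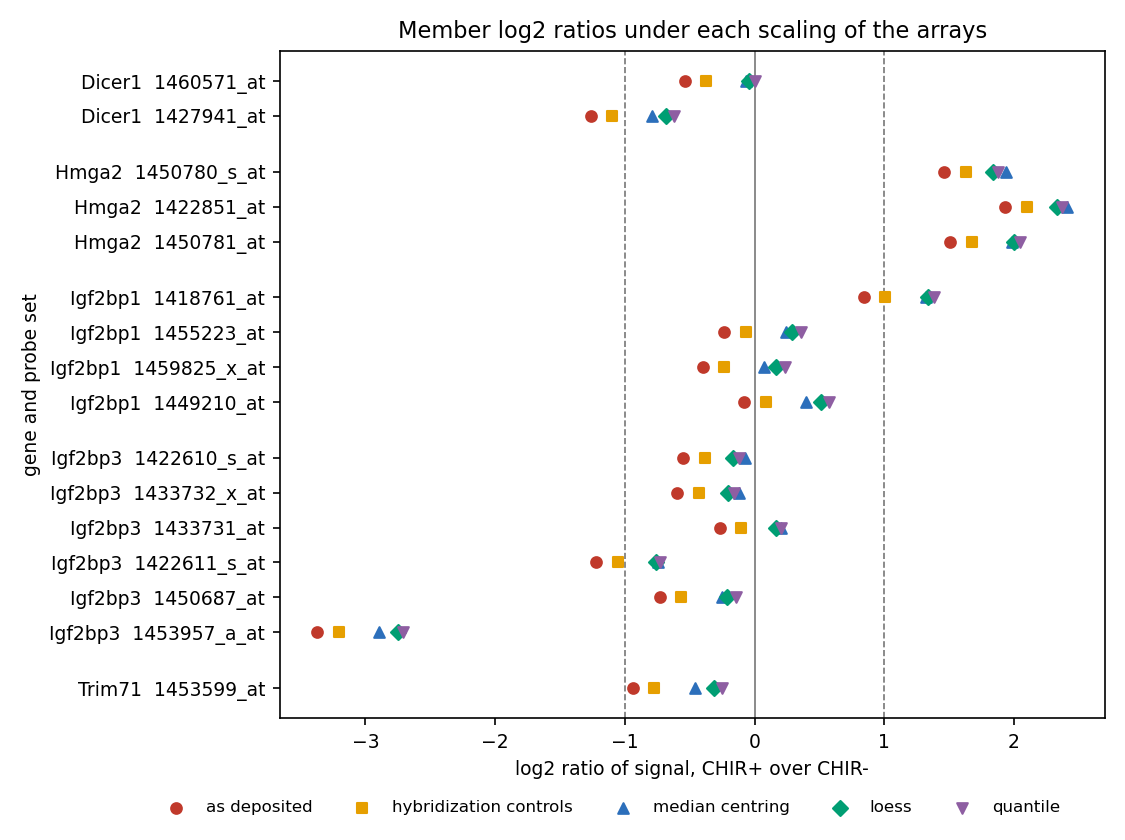
Log2 ratio of signal, CHIR+ over CHIR-, of the same 16 probe sets on the deposited scale and after 4 other scalings of the arrays (symbols), with dashed lines at 2-fold. Hmga2 stays beyond 2-fold under all of them, the brightest Igf2bp1 probe set passes 2-fold in all but the deposited scale, and the Dicer1, Igf2bp3 and Trim71 points move right, with 1 Igf2bp3 point crossing 0 after median centring, loess or quantile normalization and the brighter Dicer1 point reaching 0.01 after quantile normalization.

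The machinery that makes and degrades let-7 was present in both cultures, with mostly small differences. Of 24 listed genes of microRNA processing and let-7 turnover other than Dicer1, 23 had a probe set and all 23 were above the floor, with 0 being 2-fold or more higher with CHIR99021 and 2 lower, against 1.90% and 18.4% of all genes. Their median log2 ratio was -0.25, against -0.40 for all genes, and turned positive after median centring (0.23), quantile normalization (0.13) and loess (0.09). The median of all genes above both floors turned positive as well, to 0.07, 0.12 and 0.07 in that order. Tut7, which adds uridines to let-7 precursors, had 280 on the CHIR+ array and 683 on the CHIR- array (here and below by the brightest probe set), 2.44-fold lower, and its second probe set had a log2 ratio of -0.92. Tut7 was within 2-fold after median centring, quantile normalization and loess (log2 ratios of -0.85 to -0.81). Tnrc6b, a scaffold of the silencing complex, had 265 on the CHIR+ array and 758 on the CHIR- array, 2.86-fold lower, with a further probe set at -0.18.

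Other genes of the route were within 2-fold by their brightest probe sets, though some had a further probe set past it. Drosha, the nuclease that frees the hairpin from the primary transcript, had 986 on the CHIR+ array and 1692 on the CHIR- array, and its second probe set had a log2 ratio of -1.19. Ago4, an Argonaute that carries the mature microRNA, had 233 on the CHIR+ array and 386 on the CHIR- array, and its second probe set had a log2 ratio of -1.41. Of genes chosen after their values were seen for their role on let-7, Tut4 had 788 on the CHIR+ array and 976 on the CHIR- array, with further probe sets down to a log2 ratio of -0.77. Dis3l2 had 38.4 on the CHIR+ array and 38.3 on the CHIR- array, with a second probe set at -0.66. Tut4, Tut7 and Dis3l2 were thus above the floor on both arrays, and the Lin28 genes on neither.

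Among genes known as let-7 targets in other systems, a difference like that of Hmga2 was not found on the deposited scale. Of 29 listed, 25 had a probe set and all 25 were above the floor, with 0 being 2-fold or more higher and 3 lower with CHIR99021, against 1.90% and 18.4% of all genes. Their median log2 ratio was -0.11, against -0.40 for all genes above both floors, and it was positive after each other scaling (0.06 to 0.37). That of all genes was then 0.07 after median centring, 0.12 after quantile normalization and 0.07 after loess. After scaling on the hybridization controls it was -0.24, against 0.06 for the targets. Myc, a growth transcription factor, had 41.5 on the CHIR+ array and 263 on the CHIR- array, 6.32-fold lower by its single probe set. Ccnd2, a G1 cyclin, had 1952 on the CHIR+ array and 5911 on the CHIR- array, 3.03-fold lower, and all 7 of its probe sets were lower (log2 ratios from -2.48 to -1.60). Fas, a death receptor, had 40.0 on the CHIR+ array and 101 on the CHIR- array, 2.52-fold lower, but was within 2-fold after median centring, quantile normalization and loess (-0.86 to -0.66).

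Other targets were nearly equal or moved within 2-fold by their brightest probe sets, though some had a further probe set past 2-fold lower. Named after their values were seen, these reached log2 ratios of -1.09 for Ccnd1 and -1.14 for Fndc3b. Mycn, the Myc paralogue of embryonic progenitors, had 1464 on the CHIR+ array and 1418 on the CHIR- array, with a further probe set at a log2 ratio of -1.07. Arid3a, a DNA-binding protein, had 113 on the CHIR+ array and 215 on the CHIR- array. These counts depended on the scaling: after median centring 5 targets were 2-fold or more higher and 2 lower, against 5.91% and 7.44% of all genes. Quantile normalization also gave 5 higher and 2 lower, against 7.38% and 6.43%, and loess gave 3 higher and 2 lower, against 6.44% and 7.03%. Among those higher under all 3 of these scalings were Cdk6, a G1 kinase (410 on the CHIR+ array and 231 on the CHIR- array), and Plagl2, a growth factor-inducing zinc finger protein (632 on the CHIR+ array and 362 on the CHIR- array), both named after their values were seen.

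Fetal growth genes were found past 2-fold in both directions. Of 13 listed, 12 had a probe set and 11 were above the floor, with 2 being 2-fold or more higher and 4 lower with CHIR99021, against 1.90% and 18.4% of all genes, and the median log2 ratio of the 10 above it on both arrays was 0.10. Igf2, the fetal growth factor whose messenger RNA gave the Igf2bp genes their name, had 1486 on the CHIR+ array and 4559 on the CHIR- array, 3.07-fold lower. Afp, the classical oncofetal protein, had 241 on the CHIR+ array and 928 on the CHIR- array, 3.84-fold lower, and all 3 of its probe sets were lower. Cdkn1c, an imprinted cell cycle inhibitor, was 2.54-fold lower, but within 2-fold after median centring (a log2 ratio of -0.87). Igf2r, the receptor that clears Igf2, was 2.04-fold lower as deposited, and was chosen after seeing that value. It was within 2-fold under each of the 4 other scalings (-0.86 to -0.55), and its second probe set had a log2 ratio of -0.01 as deposited.

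In the opposite direction, Peg3, an imprinted zinc finger gene, had 4281 on the CHIR+ array and 1854 on the CHIR- array, 2.31-fold higher, with 1 of its 3 probe sets at -0.21. Mest, another imprinted gene of fetal growth, named after its value was seen, had 280 on the CHIR+ array and 125 on the CHIR- array, 2.25-fold higher. H19 had no probe set of its own and is not analysed here.

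**Figure D4:**
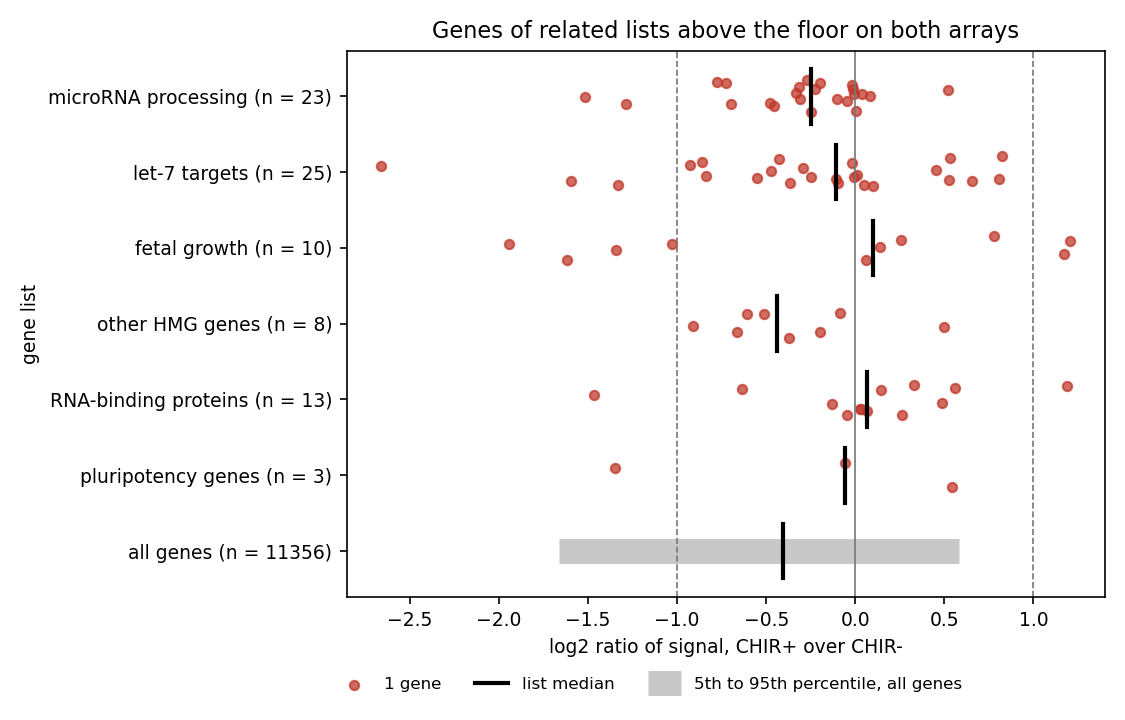
Log2 ratio of signal, CHIR+ over CHIR-, by gene list for genes above the floor on both arrays (1 point a gene by its brightest probe set, black ticks for medians, dashed lines at 2-fold), with the 5th to 95th percentile of all 11356 genes as a grey bar in the bottom row. The let-7 targets run from -2.66 to 0.83 and the fetal growth genes from -1.94 to 1.21, and the list medians lie between -0.44 and 0.10, against -0.40 for all genes.

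Other genes of the Hmga and Igf2bp kinds were mostly within 2-fold by their brightest probe sets, though some had a further probe set past 2-fold lower. Named after their values were seen, these reached log2 ratios of -3.29 for Syncrip, -1.57 for Fmr1 and -1.39 for Hnrnpu. They reached -1.35 for Dhx9, -1.08 for Elavl1 and -1.05 for Hmgxb4. No further probe set of these lists above both floors was past 2-fold higher. Of the 12 other high mobility group genes listed, 8 had a probe set, all above the floor, with 0 being 2-fold or more higher and 0 lower, against 1.90% and 18.4% of all genes, and a median log2 ratio of -0.44 (0.04 after median centring). Hmg20b, Hmgn5, Hmgb3 and Hmgxb4, the furthest by the naming rule, had log2 ratios of -0.91, -0.66, -0.61 and -0.51. Of 14 listed messenger RNP partners and developmental RNA-binding proteins, 13 had a probe set, all above the floor, with 1 being 2-fold or more higher and 1 lower, against 1.90% and 18.4% of all genes, and a median log2 ratio of 0.07. Msi1, an RNA-binding protein of stem and progenitor cells, was the higher one, at 48.3 on the CHIR+ array and 21.2 on the CHIR- array, just above its floor of 19.2. Stau1, a double-stranded RNA-binding transport protein, was the lower one, at 135 on the CHIR+ array and 373 on the CHIR- array, 2.77-fold, but within 2-fold after median centring, quantile normalization and loess (log2 ratios of -0.99 to -0.90). Ybx3, a cold shock domain protein like the Lin28 proteins, had 4183 on the CHIR+ array and 2840 on the CHIR- array, and Msi2 had 399 on the CHIR+ array and 620 on the CHIR- array, with further probe sets down to a log2 ratio of -1.29.

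Pluripotency genes, which accompany Lin28a and Trim71 in embryonic stem cells, were mostly at or near background. Of 12 with a probe set, 5 were below the floor on both arrays, Pou5f1 and Zfp42 among them, and 3 were above it on both. Of all 18193 genes with a probe set, 12917 were over the floor of at least 1 array and 11356 of both. Among the 7 measured, 0 were 2-fold or more higher and 2 lower, against 1.90% and 18.4% of all genes. Klf4, named after its value was seen, was the brightest on both arrays, at 238 on the CHIR+ array and 248 on the CHIR- array. Tfcp2l1, which is also known from kidney and other epithelia, was below the floor on the CHIR+ array at 2.15 and had 159 on the CHIR- array, at least 12.5-fold lower. Fgf4 had 17.4 on the CHIR+ array and 44.4 on the CHIR- array, 2.55-fold lower, but within 2-fold after median centring, quantile normalization and loess (-0.87 to -0.66). Esrrb had 32.6 on the CHIR+ array and 22.4 on the CHIR- array, and Dppa5a had 25.5 on the CHIR+ array and 17.7, below the floor, on the CHIR- array.

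The labelled cell type was checked on its markers. Of 7 epithelial markers, 6 were above the floor on the CHIR+ array and all 7 on the CHIR- array, with summed signals of 23628 on the CHIR+ array and 36122 on the CHIR- array. The exception was Nkx2-1, the lung identity factor, at 5.84 on the CHIR+ array and 52.0 on the CHIR- array. By their brightest probe sets 0 were 2-fold or more higher and 3 lower, against 1.90% and 18.4% of all genes. The lower ones were Nkx2-1, Krt8 (2.45-fold) and Krt18 (2.38-fold). Epcam had 3743 on the CHIR+ array and 3846 on the CHIR- array, and Sftpc 8500 and 8808. After median centring 1 was lower, against 7.44% of all genes. Of 12 mesenchymal markers, 6 were above the floor on each array, with summed signals of 639 on the CHIR+ array and 726 on the CHIR- array. These were Col1a1, Col1a2, Col3a1, Vim, Acta2 and Dcn. The brightest were Vim, at 245 on the CHIR+ array and 257 on the CHIR- array, and Acta2, at 194 and 199. Pdgfra, Pdgfrb, Tbx4, Fgf10, Twist1 and Prrx1 were below the floor on both. Endothelial markers were above it for 1 of 6 genes, Kdr, on both arrays (summed signals of 46.1 on the CHIR+ array and 65.5 on the CHIR- array). Blood markers were so for 2 of 4 with a probe set, Cd68 and Lyz2 (65.7 on the CHIR+ array and 115 on the CHIR- array). Of 4 mesothelial markers 1 was above the floor on each array. These were Lrrn4 on the CHIR+ array, at 14.8 just above the floor of 12.7, and Msln on the CHIR- array, at 471. The sums were 22.7 on the CHIR+ array and 482 on the CHIR- array, the latter almost all from Msln. Wt1 and Upk3b were below the floor on both. Of 3 neural markers with a probe set 1 was above it on the CHIR+ array and 0 on the CHIR- array, with sums of 33.3 on the CHIR+ array and 29.2 on the CHIR- array. The part of cells other than epithelium in the member ratios was not tested.

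Of the regional markers of lung epithelium, that of the tip was higher with CHIR99021 and that of the airway lower. Sox9, the transcription factor of the distal tip, had 771 on the CHIR+ array and 70.1 on the CHIR- array, 11.0-fold higher. Sox2, which marks the conducting airway, was below the floor on the CHIR+ array at 9.89 and had 285 on the CHIR- array, at least 22.4-fold lower. Actb, a cytoskeletal gene used as a control, had 8889 on the CHIR+ array and 9012 on the CHIR- array.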

How the data were processed

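RNA (100 ng a culture) was labelled with a 3' in vitro transcription kit and hybridised to Affymetrix arrays, per the labels' protocols. The deposited values are linear MAS5 signal intensities, and the submitters' processing notes name no version. Scaling and centring between arrays are not stated, and the array medians were 20.3 (CHIR+) and 32.9 (CHIR-). Symbols came from the platform annotation: 34945 probe sets named 1 gene, 932 several and 9211 none here. Sequences came from RefSeq tables.

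Signals below the floor were raised to it, and log2 ratios are CHIR+ over CHIR-. A gene was read from its brightest probe set and called at 2-fold. The number of arrays, 1 per condition, limits the precision. The log2 ratios of probe sets of 1 gene had an SD of 0.56 over 5335 genes, which measures probes and not cultures. The named genes were all members, up to 4 genes per list with the largest ratio at 2 times the floor or more, and Myc, Mycn, Igf2, H19, Sox9, Sox2 and Actb. Members and lists were chosen with earlier results of these data known. The alternatives were 4 scalings, other floors or an offset of 16, the median over probe sets and other fold thresholds. A further one left out suffixed probe sets, those ending in _x_at, _s_at or _a_at. Python 3.11.15, pandas 2.3.3 and statsmodels 0.14.6 (loess span 0.4) were used. The code for the calls was run on simulated data with an even shift and less spread between probe sets than these arrays have. That run checks the code and not the precision of the ratios.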

Additional observations from a re-analysis of the deposited data

How the results depend on the processing

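No paired analysis was possible because each condition had 1 array. Of 202 recomputed counts, 140 stayed within 1.5 times the value given above. Hmga2 was the only member at least 2-fold higher on the deposited scale. Igf2bp1 joined it, making 2 members, after median centring, quantile normalization, loess, scaling on the hybridization controls and at a 1.5-fold threshold, while at 3-fold 0 were higher and at 1.5-fold 1, Trim71, was lower. As the median over its probe sets, Igf2bp1 had a log2 ratio of -0.25 in place of 0.84. Over all alternatives the log2 ratio stayed between 1.43 and 1.94 for Hmga2, -0.74 and -0.07 for Igf2bp3, -0.94 and -0.25 for Trim71 and -0.90 and 0.01 for Dicer1. Over all genes, 763 of 12917 were higher and 961 lower after median centring. Quantile normalization gave 953 and 830 of 12915, and loess 832 and 908 of 12910. At 1.5-fold 652 of 12917 were higher and 5005 lower, and at 3-fold 81 and 812. Without a floor 1213 of 18193 were higher and 4606 lower, and 204 and 1796 were so with an offset of 16. A floor at the 99th percentile gave 209 higher and 2089 lower. The median over probe sets gave 161 and 2650, and leaving out suffixed probe sets 207 and 2222. The number of genes measured can change with that floor and these choices of probe sets and was not counted here, so they have no share. The member and list counts in this paragraph are to be read against these counts over all genes, and none is read as a departure from them. Measured on the main floor were 23 genes of microRNA processing, 25 let-7 targets and 11 fetal growth genes. The other lists had 8 high mobility group genes, 13 RNA-binding protein genes and 7 pluripotency genes measured. Genes of microRNA processing that were lower numbered 1 after median centring, quantile normalization and loess. They numbered 4 by the median over probe sets or without suffixed probe sets, 5 at 1.5-fold and 0 at 3-fold. Targets of let-7 that were higher numbered 5 after median centring or quantile normalization and 3 after loess or at 1.5-fold, and those lower 5 by the median over probe sets and 6 at 1.5-fold. Fetal growth genes that were higher numbered 1 by the median over probe sets and 0 at 3-fold, and those lower 2 after median centring or at 3-fold. Other high mobility group genes that were lower numbered 1 by the median over probe sets and 3 at 1.5-fold. RNA-binding protein genes that were higher numbered 2 after median centring and 0 with a floor at the 99th percentile, an offset of 16, the median over probe sets or 3-fold. Those lower numbered 0 after median centring, quantile normalization, loess or at 3-fold. They numbered 4 by the median over probe sets, and 2 without suffixed probe sets or at 1.5-fold. Pluripotency genes that were higher numbered 1 after median centring or without a floor and 2 after quantile normalization or loess. Those lower numbered 1 after these scalings, with an offset or at 3-fold, 4 without a floor and 0 by the median over probe sets. The cause of these shifts was not tested. Signals near the floor limit Trim71 and the dimmest probe sets of Hmga2 and Igf2bp3, and Lin28a and Lin28b could not be read at all.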
